A study of Homo sapiens with 4 samples.

Results

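The 10 core genes of the circadian clock, ARNTL, CLOCK, NPAS2, PER1, PER2, PER3, CRY1, CRY2, DBP and TEF, were read out by RNA sequencing in a pair of human gastric cancer cell lines. They were chosen by name as the central loop of the clock and its PAR bZIP output factors, and all 10 were found among the 58336 genes of the deposited count table. ARNTL is the older symbol, kept by the table, of the gene now called BMAL1. AGS is a line grown from a gastric adenocarcinoma and keeps epithelial features, while HGC-27 comes from a poorly differentiated gastric carcinoma. Both were labelled wild type, and each was measured as a control and after 1 day in 10 nM estradiol (E2), the main oestrogen, which gave 4 libraries: 1 per line and treatment. Each line is a single cell population, and neither independent cultures nor the hour of harvest is given in the sources used here. Each library therefore shows the clock genes at 1 time only, averaged over all cells of the culture, and nothing in these data speaks of rhythm or phase.

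The mammalian clock is a loop of transcription and repression. ARNTL pairs with CLOCK, or with its paralog NPAS2, and the pair binds E-boxes in DNA and turns on the PER and CRY genes, whose proteins come back to the nucleus and block the pair. A side loop of nuclear receptors acts on ARNTL through ROR elements, with the RORs as activators and NR1D1 and NR1D2 (the REV-ERB receptors) as repressors. DBP and TEF, with their relative HLF, are outputs that act through D-boxes and are opposed there by NFIL3. In most tissues, stomach included, such loops run in single cells and stay in step only while some signal sets them.

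Some promoters of these genes carry elements through which the loop is known to close, and the letters of those stretches are shown so that genes with and without them can be told apart in the values that follow. RefSeq promoter windows (GRCh38.p14, 250 bases before to 50 after a start site) were found for 10 of the 10 genes, 15 windows in all, since some genes have more than 1 start site. The E-box CACGTG stood in 3 of these 15 windows, which belong to 2 genes, PER1 and TEF, and in 7.26% of all 35116 windows of the table. The variant E-box CACGTT, read on either strand, stood in 4 of the 15 windows, 1 each of PER2, CRY1, CRY2 and CLOCK, and in 5.34% of all windows. These stretches, written 5′ to 3′ on the strand of the gene with the E-box or its variant in capitals (AACGTG is CACGTT on the opposite strand), were as follows.
PER1 (chr17:8152525-8152624, minus strand): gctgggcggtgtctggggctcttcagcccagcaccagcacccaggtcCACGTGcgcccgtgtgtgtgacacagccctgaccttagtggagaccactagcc
TEF, upstream start site (chr22:41367213-41367312, plus strand): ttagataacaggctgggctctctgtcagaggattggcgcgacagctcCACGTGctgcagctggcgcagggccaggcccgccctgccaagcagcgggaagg
TEF, downstream start site (chr22:41381702-41381801, plus strand): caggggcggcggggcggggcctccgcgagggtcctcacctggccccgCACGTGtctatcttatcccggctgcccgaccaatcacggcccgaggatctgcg
PER2 (chr2:238288755-238288854, minus strand): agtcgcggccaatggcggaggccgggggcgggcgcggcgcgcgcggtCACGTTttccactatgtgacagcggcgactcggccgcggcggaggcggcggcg
CRY2 (chr11:45847282-45847339, plus strand): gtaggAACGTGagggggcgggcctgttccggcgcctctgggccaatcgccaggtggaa
CLOCK (chr4:55546067-55546166, minus strand): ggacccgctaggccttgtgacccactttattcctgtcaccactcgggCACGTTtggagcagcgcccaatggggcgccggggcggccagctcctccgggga
CRY1 (chr12:107093621-107093650, minus strand): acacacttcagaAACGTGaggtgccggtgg
Counted from the start site, the match began at base -173 in PER1, -197 in PER2, -89 in CRY1, -188 in CRY2 and -187 in CLOCK. In TEF it ended at base -190 of the upstream and -188 of the downstream start. In GENCODE release 29, the stretches of PER3 (shown next) and of the upstream TEF start lay outside the annotated gene. Of the stretches above, those of PER1, PER2, CRY2, CLOCK and the downstream TEF start lay in introns of longer transcripts, and that of CRY1 in an exon.

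The elements of the output and side loops were rarer. The D-box TTATGTAA stood in a window of PER3 (0.886% of all windows) and TTACGTAA in that of PER2 (0.125%). The core of the ROR element, TAGGTCA, stood in 2 of the 15 windows, 1 each of ARNTL and CRY2 (1.85% of all windows). The stretches below carry those elements in capitals.
PER2 (chr2:238288606-238288665, minus strand): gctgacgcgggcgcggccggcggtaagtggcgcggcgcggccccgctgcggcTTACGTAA
PER3 (chr1:7784067-7784166, plus strand): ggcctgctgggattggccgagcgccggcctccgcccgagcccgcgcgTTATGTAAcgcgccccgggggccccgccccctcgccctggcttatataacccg
CRY2 (chr11:45847398-45847427, plus strand): gttgcggcgtcaTAGGTCActgggcgggct
ARNTL (chr11:13277809-13277838, plus strand): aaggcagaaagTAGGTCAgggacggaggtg
In PER2 the D-box lay across the start site, from base -3 to base 5, and in ARNTL the ROR core lay after it, at bases 31 to 37. Searched on both strands, the cyclic AMP element TGACGTCA (1.85% of all windows), the palindromic oestrogen response element (GGTCA, any 3 bases, TGACC: 0.057%) and the glucocorticoid element (AGAACA, any 3 bases, TGTTCT: 0.00285%) gave 0 matches in the windows of the 10 genes. The windows of NPAS2 and DBP held none of the elements searched. No searched motif contains another, and these matches describe letters in short windows, not binding.

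**Figure D1:**
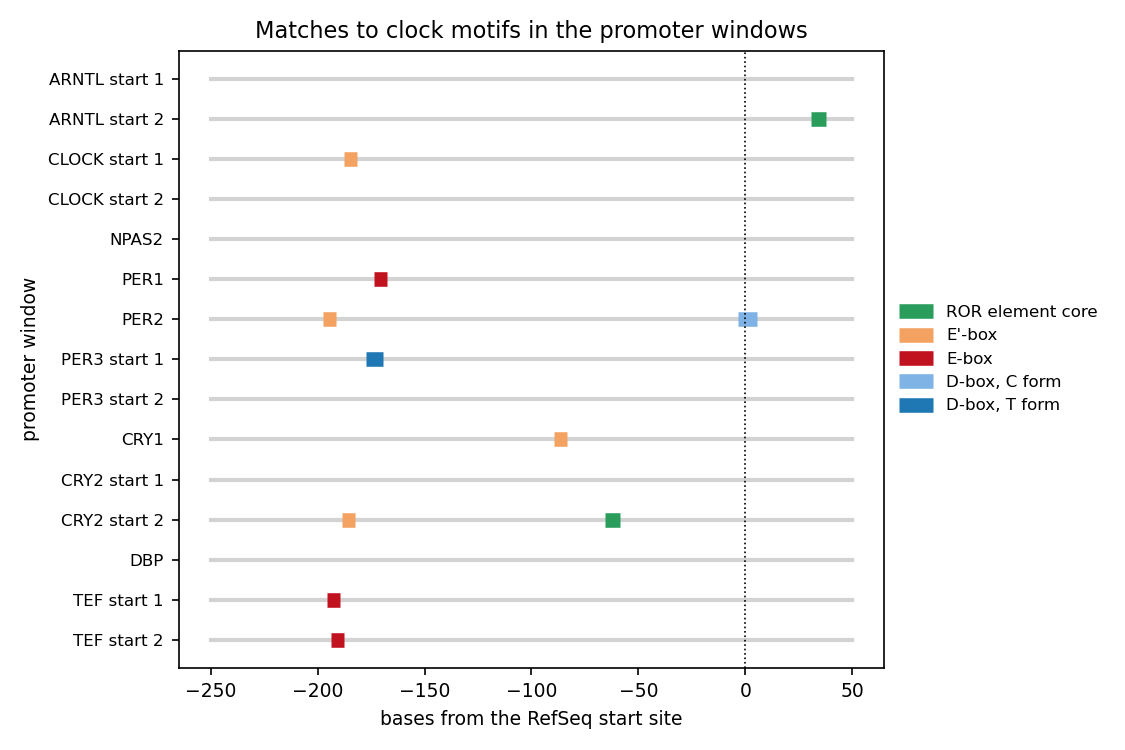
Matches to 5 of the motifs in the 15 RefSeq promoter windows of the 10 clock genes, by distance in bases from the start site (dotted line). Each grey line is a window, and coloured blocks are matches drawn to scale. The E-boxes and their variants lay between bases -197 and -84.

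Library depth did not differ much: the deposited counts summed to between 24597379 and 28734374 per library, and 3 counts correspond to 0.104 to 0.12 CPM, counts scaled to a common library total. The lines differed in most lineage markers tested. In the comparison of lines below, 35.7% of all genes tested passed as higher and 41.5% as lower in AGS. Of 7 epithelial markers, 7 were higher in AGS, with a summed level of 5992 and 6331 CPM there against 70.6 and 74.9 CPM in HGC-27. Of 4 tested among 5 mesenchymal markers, 4 were higher in HGC-27 (1571 and 1593 CPM against 5.0 and 5.57, summed over all 5). The untested marker, CDH2, had few counts and went the other way, with 5 and 11 in AGS and 4 and 0 in HGC-27. Of 6 fibroblast and endothelial markers, 4 were tested and all 4 were higher in HGC-27 (1695 and 1761 CPM against 12.7 and 10.9), where the endothelial genes PECAM1 and CDH5 were at 0. DCN and LUM were at 0 in AGS. The 6 gastric markers summed to 150 and 142 CPM in AGS and 13.3 and 16.1 CPM in HGC-27. GKN1 was at 0 in every library, and TFF1, TFF2 and MUC5AC were at 0 in HGC-27. Leukocyte markers summed to 2.50 to 5.40 CPM. These markers move with the line in every comparison of lines below, and their part in those results was not tested.

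Levels are given as RPKM, CPM divided by the deposited gene length in kilobases, so that genes can be compared, and differences as fitted log2 values with their standard error (SE). In AGS the most abundant clock mRNA per length was CLOCK, and in HGC-27 it was PER3. In AGS the order ran CLOCK (16.3 RPKM, mean of both libraries), PER3 (8.42), TEF (7.77), PER2 (5.12), CRY1 (5.06), CRY2 (4.79), DBP (3.19), PER1 (2.50), NPAS2 (1.19) and ARNTL (0.83). The ranges of PER2 and CRY1 overlapped between the libraries, as did those of CRY1 and CRY2. The counting intervals of PER3 and TEF, and of DBP and PER1, also overlapped. In HGC-27 the order ran PER3 (10.3), CRY1 (6.73), CLOCK (5.69), TEF (4.45), DBP (2.75), PER1 (2.73), CRY2 (2.53), PER2 (1.63), ARNTL (1.36) and NPAS2 (0.735). There the ranges of DBP and PER1 overlapped, and the counting intervals of PER1 and CRY2 and of PER2 and ARNTL did. The deposited gene length counts every annotated exon once. With the length of the principal coding transcript instead, a choice made after seeing the data, all 20 mean levels moved by more than their SD. DBP then stood at rank 3 in both lines, at 9.37 RPKM in AGS and 8.08 in HGC-27. PER2 went from rank 4 to 7 in AGS, and from rank 8 to 10 in HGC-27, where it replaced NPAS2 as the lowest. CLOCK went from rank 3 to 4 in HGC-27.

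**Figure D2:**
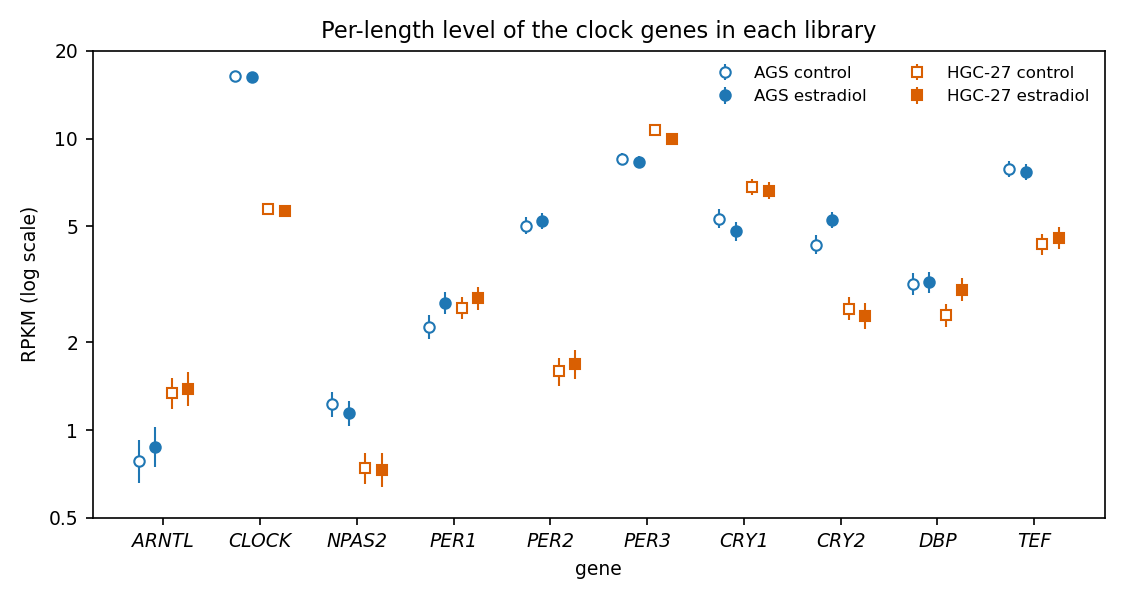
RPKM (log scale) of the 10 clock genes in each of the 4 libraries, with 95% Poisson counting intervals. Circles are AGS and squares HGC-27, open for control and filled for estradiol. The 2 libraries of a line sit close together for nearly every gene, while CLOCK and PER2 are set far apart between the lines.

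The comparison of the lines asked how the make-up of the clock differs between them. Of the 10 genes, 5 were higher in AGS (CLOCK, NPAS2, PER2, CRY2 and TEF), 3 were higher in HGC-27 (ARNTL, PER3 and CRY1), and DBP and PER1 did not pass (edgeR quasi-likelihood test over 18278 genes, Benjamini-Hochberg adjusted p under 0.05, n = 2 libraries per line). Such a share is near that of all genes: 77.2% of the genes tested passed in this comparison, 35.7% higher and 41.5% lower in AGS. At an unadjusted p under 0.05 the count was 9 of 10, DBP included, and 78.3% of all genes. The median absolute log2 difference was 0.70 for the clock genes and 0.89 for all genes tested, and the signed medians were 0.45 and -0.10. For 9 of the 10 the libraries of the lines did not overlap in CPM (88.7% of all genes). Nothing says that the libraries of a line are separate cultures, and 1 of each pair had estradiol. The error of this comparison comes from the spread between these libraries, pooled over genes (1 residual and 396.9 prior degrees of freedom). It can be too small for a gene that varies more between cultures. In bulk RNA, fewer cells that express a gene and less of its RNA per cell cannot be told apart.

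The activators differed in opposite directions. CLOCK, which binds E-boxes together with ARNTL and is an acetyltransferase (ENSG00000134852, chromosome 4, 55427903 to 55547138, minus strand), had 16.4 RPKM in the control and 16.2 in the estradiol library of AGS, against 5.74 and 5.64 in those of HGC-27. Values of the other genes follow the same order. It was 2.87-fold higher in AGS (log2 difference 1.52 ± 0.06 SE, adjusted p = 1.55e-86, edgeR). ARNTL, the partner that both CLOCK and NPAS2 need (ENSG00000133794, chromosome 11, 13276652 to 13387266, plus strand), went the other way, with 0.784 and 0.877 RPKM in AGS and 1.34 and 1.39 in HGC-27. Its log2 difference of AGS minus HGC-27 was -0.71 ± 0.18 (adjusted p = 0.000114). NPAS2, the paralog that can stand in for CLOCK (ENSG00000170485, chromosome 2, 100820152 to 100996829, plus strand), had 1.23 and 1.14 RPKM in AGS and only 0.739 and 0.730 in HGC-27, a log2 difference of 0.69 ± 0.14. For all 3 activators both libraries of a line lay on the same side of both libraries of the other.

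The balance within the pair differed accordingly. CLOCK mRNA exceeded ARNTL mRNA per length by 21.0-fold and 18.5-fold in the AGS libraries and by 4.30-fold and 4.07-fold in those of HGC-27. With principal transcript lengths these ratios were 9.87 and 8.71 in AGS and 2.02 and 1.92 in HGC-27. NPAS2 made up 6.96% and 6.58% of the CLOCK plus NPAS2 level in AGS and 11.4% and 11.5% in HGC-27, or, with principal transcript lengths, 16.97% and 16.1% against 26.0% and 26.1%. ARNTL2, the paralog of ARNTL and a gene outside the 10, was the more abundant of the ARNTL genes in every library. It exceeded ARNTL by 13.9-fold and 13.7-fold in AGS and by 1.77-fold and 1.69-fold in HGC-27. With both paralogs summed, AGS had 11.6 and 12.8 RPKM and HGC-27 had 3.70 and 3.73, so that the sum was higher in AGS although ARNTL itself was lower there. With principal transcript lengths the sums were 35.0 and 38.6 RPKM in AGS and 10.5 in both HGC-27 libraries. These ratios and shares depend on the length used and are descriptions without a test.

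The PER genes, whose proteins carry CRY proteins to the nucleus and set the pace of repression, differed in make-up more than in sum. PER2 (ENSG00000132326, chromosome 2, 238244038 to 238290102, minus strand) had 5.02 and 5.22 RPKM in AGS and 1.59 and 1.68 in HGC-27. At 3.13-fold it had the largest difference of the 10 between the lines (log2 1.65 ± 0.11, adjusted p = 2.93e-42, edgeR). PER3, the least essential of the family for rhythm in mice (ENSG00000049246, chromosome 1, 7784320 to 7845177, plus strand), had 8.50 and 8.34 RPKM in AGS and 10.7 and 9.94 in HGC-27, a log2 difference of -0.29 ± 0.06 (adjusted p = 1.1e-05). PER1 (ENSG00000179094, chromosome 17, 8140472 to 8156506, minus strand) had 2.26 and 2.73 RPKM in AGS and 2.63 and 2.83 in HGC-27. It was the only gene of the 10 whose lines overlapped. Its difference did not pass (-0.13 ± 0.11, adjusted p = 0.271), and it was 0.0179 in a fit without the AGS control library, which could not hold the treatment term. With all 4 libraries and no treatment term it was -0.13.

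Summed over the family, PER mRNA stood at 15.8 and 16.3 RPKM in AGS and 14.9 and 14.5 in HGC-27. PER2 gave 31.8% and 32.0% of that sum in AGS and 10.6% and 11.6% in HGC-27, and PER3 gave 53.9% and 51.2% against 71.8% and 68.8%. The same held for the CRY genes, the direct repressors of the CLOCK and ARNTL pair. CRY1 (ENSG00000008405, chromosome 12, 106991364 to 107093829, minus strand), the stronger repressor of the CRY proteins, had 5.31 and 4.80 RPKM in AGS and 6.84 and 6.63 in HGC-27 (log2 -0.41 ± 0.09, adjusted p = 1.16e-05). CRY2 (ENSG00000121671, chromosome 11, 45847118 to 45883248, plus strand) had 4.33 and 5.26 RPKM in AGS and 2.61 and 2.46 in HGC-27 (log2 0.91 ± 0.10, adjusted p = 1.29e-16). Their sum was 9.64 and 10.1 RPKM in AGS and 9.45 and 9.09 in HGC-27, of which CRY1 gave 55.1% and 47.7% in AGS and 72.4% and 73.0% in HGC-27. With principal transcript lengths the CRY sums were 14.6 and 15.2 against 14.4 and 13.9 RPKM, and the PER sums 19.9 and 20.6 against 19.6 and 19.0.

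The output factors DBP and TEF, which bind D-boxes, both had fitted differences toward AGS, but only that of TEF passed. TEF (ENSG00000167074, chromosome 22, 41367333 to 41399326, plus strand) had 7.84 and 7.70 RPKM in AGS and 4.34 and 4.56 in HGC-27, and was 1.75-fold higher in AGS (log2 0.81 ± 0.09, adjusted p = 2.84e-16). DBP (ENSG00000105516, chromosome 19, 48630030 to 48637438, minus strand) had 3.17 and 3.21 RPKM in AGS and 2.47 and 3.03 in HGC-27. Its libraries did not overlap between the lines but the difference did not pass (0.22 ± 0.11, adjusted p = 0.0587, edgeR). It passed narrowly with RLE size factors (0.23, adjusted p = 0.04996), and in a fit without the HGC-27 estradiol library and the treatment term (0.36, adjusted p = 0.014). With all 4 libraries and no treatment term it did not pass (0.22, adjusted p = 0.0731). DBP shares 661 exon bases, 10.1% of its exons, with SPHK2 on the opposite strand, a sphingosine kinase gene counted 842 and 756 times in AGS but 307 and 272 times in HGC-27. Whether strand was kept is not given, so reads in that stretch cannot be assigned to either gene. CLOCK shares 76 exon bases (0.646%) with TMEM165 on the opposite strand, and PER3 868 with UTS2, which had 1 to 4 counts.

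**Figure D3:**
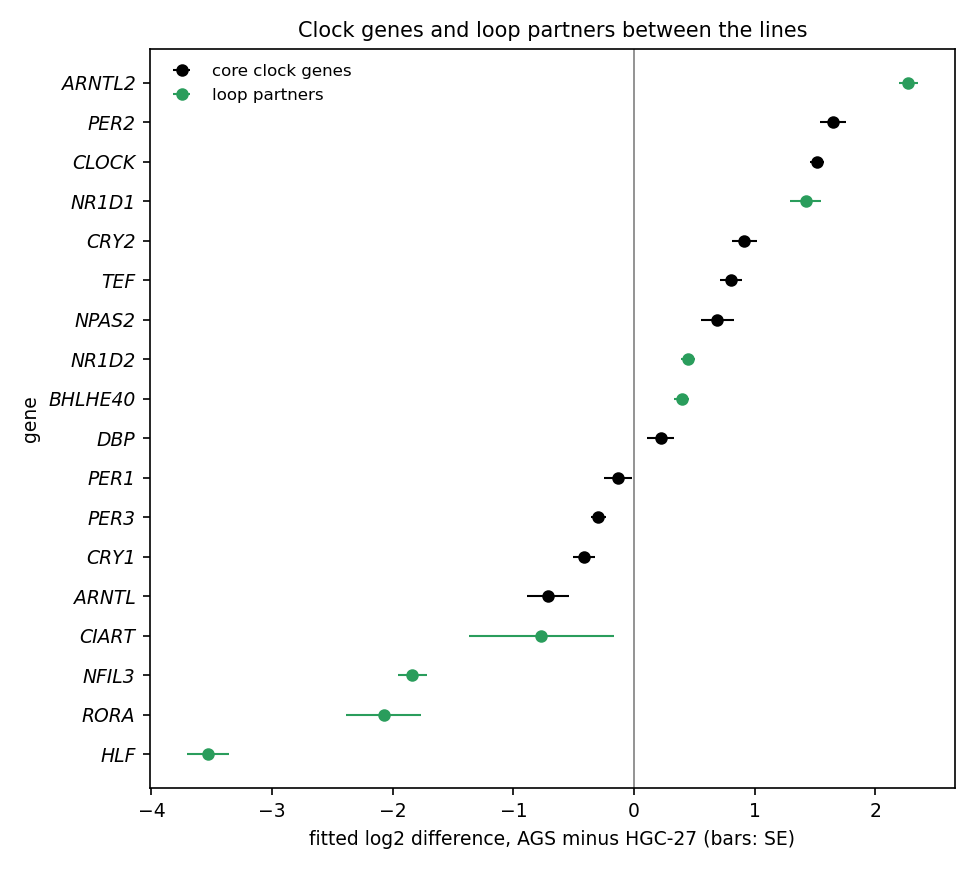
Fitted log2 difference of AGS minus HGC-27 (bars: SE) for the 10 clock genes (black) and 8 of 10 loop partners (green), sorted. RORB and BHLHE41 are left out because both AGS libraries were at 0. PER2 and CLOCK lead the clock genes at 1.65 and 1.52, and ARNTL is lowest among them at -0.71.

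Most partners of the loop also passed between the lines, where 77.2% of all genes did. Of 10 partners 4 were higher in AGS, 5 were lower and CIART did not pass, with a median log2 difference of -1.30 (also -1.30 with genes at 0 set to their bound). ARNTL2 (2.27 ± 0.08), the repressors NR1D1 (1.42 ± 0.13) and NR1D2 (0.45 ± 0.06) and the E-box repressor BHLHE40 (0.40 ± 0.06) were higher in AGS. The genes higher in HGC-27 were HLF (-3.53 ± 0.18), the D-box repressor NFIL3 (-1.84 ± 0.12), and the receptor RORA (-2.08 ± 0.31), with RORB and BHLHE41, a relative of BHLHE40. BHLHE41 was not counted in either AGS library (0) but had 163 and 220 counts with HGC-27, at least 62.5-fold higher against a floor of 3 counts per library. RORB was at 0 counts in AGS but at 19 and 16 counts in HGC-27. The D-box family thus differed in make-up too: HLF gave 2.43% and 2.31% of the summed RPKM of DBP, TEF and HLF in AGS and 30.7% and 29.3% in HGC-27, while the sum was 11.3 and 11.2 RPKM in AGS and 9.83 and 10.7 in HGC-27. With principal transcript lengths HLF gave 1.81% and 1.70% in AGS and 23.2% and 21.3% in HGC-27. NFIL3 stood at 1.39-fold and 1.09-fold the RPKM of DBP in AGS and at 5.34-fold and 4.95-fold in HGC-27. With principal transcript lengths it was at 0.474-fold and 0.370-fold in AGS, below DBP, and at 1.82-fold and 1.69-fold in HGC-27.

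The comparison of estradiol with control asked whether the hormone moved the clock genes. None of the 10 passed over both lines (edgeR with the line as a block, n = 2 libraries per group), against 0.153% of all genes (0.115% higher and 0.0383% lower), and 0 of the 10 had an unadjusted p under 0.05 (3.24% of all genes). DESeq2 and limma-voom also called 0 of the 10, but they called only 1 and 0 genes of the whole table. The fitted log2 changes lay between -0.09 for CRY1 and 0.19 for PER1, with unadjusted p from 0.0897 to 0.854 in edgeR. Their 95% intervals reached from -0.34 to 0.45, so that within this model a change above 1.37-fold lay outside the interval of every member. These intervals use a spread pooled over genes and can be too narrow for a gene that varies more between cultures. The median change was 0.04 for the 10 genes and -0.0007 for all genes tested.

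Only within a line, where there is no replicate and intervals cover counting error alone, did any member stand apart from its control. In AGS, PER1 had 411 counts in control and 529 with estradiol, 15.8 and 19.1 CPM, a log2 ratio of 0.27 (95% interval 0.09 to 0.46). CRY2 had 697 and 902 counts, 26.8 and 32.6 CPM, a ratio of 0.28 (0.14 to 0.43). These were the 2 of 10 intervals above 0 in AGS, where 14.2% of genes averaging 100 counts or more had such an interval, and 0 of 10 lay below (15.5% of genes). In HGC-27, DBP had 468 and 496 counts, 16.2 and 19.8 CPM, a ratio of 0.29 (0.11 to 0.48). PER3 had 2514 and 2012 counts, 86.9 and 80.5 CPM, a ratio of -0.11 (-0.20 to -0.03). They were the 1 of 10 above 0 (10.8% of genes) and the 1 of 10 below (14.6% of genes). All these shares lie near those of genes in general, and 0 of 10 differed by more than 1.25-fold in either line (4.95% of genes in AGS and 4.26% in HGC-27).

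In the other line CRY2, DBP and PER3 had intervals that included 0. CRY2 was at -0.09 in HGC-27 (-0.28 to 0.11), DBP at 0.02 in AGS (-0.15 to 0.19) and PER3 at -0.03 in AGS (-0.12 to 0.07). PER1 was above its control in both, at 0.11 in HGC-27 (-0.07 to 0.29), and was the only member whose estradiol libraries (19.1 and 19.8 CPM) both lay above its control libraries (15.8 and 18.4 CPM), as 5.38% of all genes did in either direction. The interval of PER1 in HGC-27 included 0. Signs were the same in both lines for 8 of the 10 and for 48.2% of genes averaging 100 counts or more in both lines. Whether the response of any gene differs between the lines cannot be tested with 1 pair of libraries per line.

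The remaining members lay close to their controls. CLOCK was counted 5020 and 5267 times in AGS, then 1953 and 1659 times in HGC-27, with log2 ratios of -0.02 (-0.08 to 0.04) and -0.02 (-0.12 to 0.07). In AGS and then HGC-27, PER2 stood at 0.05 and 0.08, CRY1 at -0.15 and -0.04, TEF at -0.03 and 0.07, NPAS2 at -0.11 and -0.02, and ARNTL at 0.16 and 0.05. The interval of ARNTL was the widest, from -0.17 to 0.50 in AGS, on 137 and 163 counts. All of these intervals included 0.

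**Figure D4:**
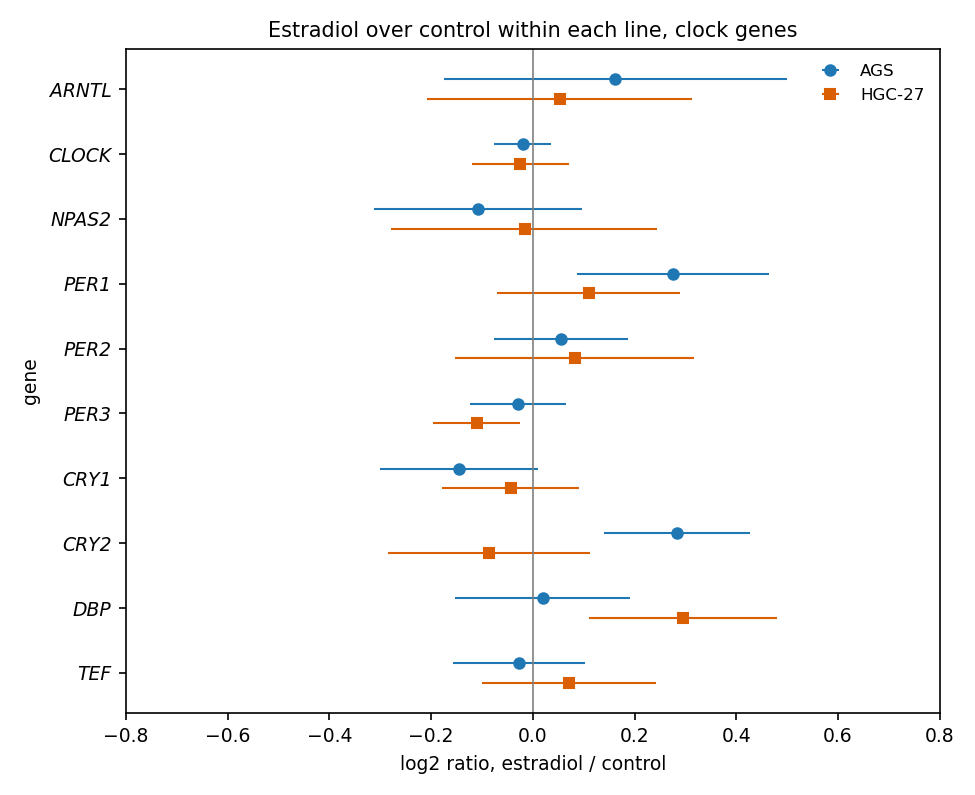
Log2 ratio of estradiol over control in AGS (blue circles) and HGC-27 (orange squares) for the 10 clock genes, with 95% counting intervals. PER1 and CRY2 in AGS and DBP in HGC-27 lie above 0, and PER3 in HGC-27 lies below.

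Among the loop partners 0 of 10 passed with estradiol over both lines (edgeR), and 3 had an unadjusted p under 0.05 (3.24% of all genes): BHLHE40 (0.21 ± 0.06, adjusted p = 0.254), RORA (0.94 ± 0.30, adjusted p = 0.525) and BHLHE41 (0.64 ± 0.32, adjusted p above 0.99). In HGC-27, 5 of 10 had a counting interval above 0 and 0 below (10.8% and 14.6% of all genes averaging 100 counts or more). RORB and CIART averaged fewer than 100 counts there. RORA, an activator at ROR elements, had 83 and 170 counts there (log2 ratio 1.24, 0.86 to 1.64) and BHLHE41 had 163 and 220 (0.64, 0.34 to 0.94). BHLHE40, which is also a known target of low oxygen, had 2003 and 2223 counts (0.36, 0.27 to 0.45), NR1D1 206 and 218 (0.29, 0.01 to 0.57), and NFIL3 796 and 783 (0.19, 0.04 to 0.33). The fitted values of RORA and BHLHE40 rest on HGC-27: in AGS RORA stood at 0.35 (-0.43 to 1.16) and BHLHE40 at 0.07 (-0.01 to 0.15). That of BHLHE41 comes from HGC-27 alone, since both AGS libraries were at 0 counts. Of genes averaging 100 counts or more in AGS, 14.2% had an interval above 0 and 15.5% below. RORA, HLF and CIART averaged fewer counts there, and RORB and BHLHE41 had no ratio. In AGS 1 partner was above 0, ARNTL2 (0.14, 0.05 to 0.23), and 1 below, NFIL3 (-0.34, -0.62 to -0.06). NFIL3 therefore stood on opposite sides of 0 in the lines, and its fitted change over both was -0.01 ± 0.12. NR1D2, with 3175 and 3262 counts in AGS and 2592 and 2162 counts for HGC-27, stood at -0.05 in both lines.

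**Figure D5:**
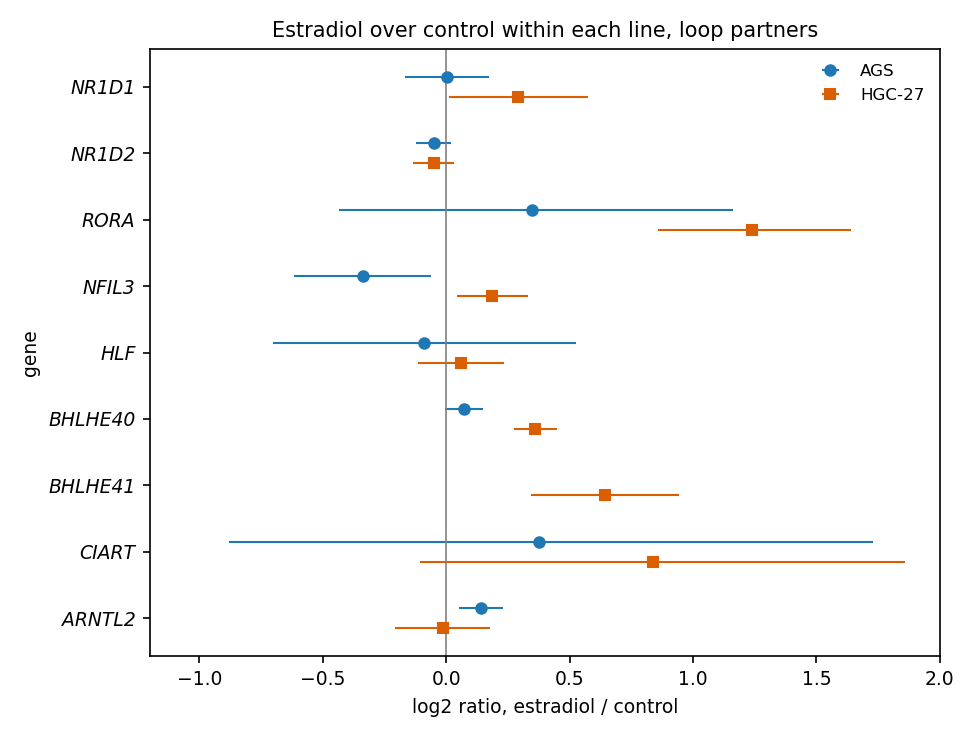
Log2 ratio of estradiol over control within each line for 9 loop partners, with 95% counting intervals. RORB is left out because both AGS libraries were at 0, and BHLHE41 has no AGS value for the same reason. RORA, BHLHE41 and BHLHE40 lie to the right of 0 in HGC-27.

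In the wider clock lists no gene passed with the hormone. With estradiol, 0 of 21 tested kinases, ligases and stability factors passed, nor did any of 18 co-regulators, 13 clock-controlled output genes, 14 genes of signals that act on PER genes or 11 other bHLH-PAS factors (edgeR). At an unadjusted p under 0.05 stood 1 stability factor and 1 co-regulator, and 0 genes of the other lists. Their median log2 changes lay between -0.005 and 0.03. Between the lines, where 77.2% of all genes passed, 10 of the 21 stability factors were higher in AGS and 9 lower. PRKAA2, a catalytic subunit of the AMP-activated kinase that marks CRY1 for breakdown, had 0 counts in both AGS libraries and 451 and 470 in HGC-27, at least 149-fold higher. PRKAA1, the other catalytic subunit in the list, was counted in both lines, 2480 and 2597 times in AGS and 4814 and 4098 times in HGC-27 (-0.80 ± 0.06). Of the 18 co-regulators 6 were higher and 6 lower, and NONO, which binds PER proteins, was lower in AGS (-1.23 ± 0.05). Of the 13 output genes 5 were higher and 7 lower, with the cell cycle inhibitor CDKN1A higher (4.58 ± 0.07) and KLF9 lower (-3.06 ± 0.10). TSC22D3, a glucocorticoid target, was counted only 1 and 5 times in AGS but 700 and 730 times in HGC-27.

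Among signals that act on PER genes 7 of 14 were higher in AGS and 5 lower, again beside 77.2% of all genes called. NR3C1, the glucocorticoid receptor through which PER1 can be induced, was counted 858 and 875 times in AGS but 1 and 4 times in HGC-27. FKBP5, of the same list, was lower in AGS (-1.61 ± 0.06). PER1 itself did not pass between the lines, and a link between the levels of these genes was not tested. Of 11 tested bHLH-PAS factors, the family to which ARNTL, CLOCK and NPAS2 belong, 7 were higher and 3 lower in AGS. EPAS1 (HIF2A) was higher in AGS (5.67 ± 0.11), and so was SIM2 (3.54 ± 0.11), while AHRR, the repressor of the aryl hydrocarbon receptor (-4.35 ± 0.14), and NPAS1 (-3.55 ± 0.27) were lower.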

How the data were processed

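RNA of 4 libraries was measured, 1 control and 1 estradiol library each of AGS and HGC-27. Reads were aligned with HISAT2 and counted with featureCounts, per the submitters' processing notes, and the authors deposited raw counts per gene with no normalization. These notes name hg18, but the coordinates of 10 of 10 clock genes in the table equal GENCODE release 29 on GRCh38. Strand and the handling of reads with several matches are not given in the sources used here, and 0% to 5.45% of the 31-base stretches of a member's longest transcript occur in another gene. Gene length is the deposited column, in bases (other), per the file headers.

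Counts were fitted in R 4.3.3 with edgeR 4.0.16: filterByExpr (18278 genes), TMM, and its quasi-likelihood test on line plus treatment, with Benjamini-Hochberg adjustment over all genes and a threshold of 0.05. Libraries with the same number in their names come from the same cell line and are paired by it: they correlated at 0.991 and 0.992 (Pearson r of log2 CPM across genes), against 0.642 and 0.636 between lines. The model has 1 residual degree of freedom and 396.9 prior ones. Ratios within a line used a prior of 0.5 counts and exact conditional binomial 95% intervals on TMM-scaled totals. Reads carry no molecular identifiers, so intervals cover counting error only. DESeq2 1.42.0, limma 3.58.1 (voom), RLE size factors, no filter, a robust spread, protein-coding genes alone, no block and omitted libraries were alternatives. Principal transcript lengths and a fit without the treatment term were added after seeing the data. The fits were also run on simulated data with the same spread for every gene, which cannot show how genes that vary more between cultures are handled.

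The members, the lists and the rule for names were chosen with earlier results of these data known. Named were the 10 members, 10 loop partners (1 further listed gene is not reported here), genes overlapping a member with a mean count of at least 50, and, per other list and comparison, the 2 largest fitted differences at that count. UTS2 was named for its shared exon bases, and PRKAA1 to stand beside PRKAA2.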

Additional observations from a re-analysis of the deposited data

Results flagged for a closer look

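CRY2 and TEF were the 2 clock genes whose estradiol library stood above control in one line and below it in the other. CRY2 had a log2 ratio of estradiol over control of 0.28 in AGS and -0.0855 in HGC-27. TEF had -0.0272 in AGS and 0.0703 in HGC-27, with counting intervals that included 0 in both lines. These differences between the lines were not tested, since each line has 1 library per treatment.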

How the results depend on the processing

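No clock gene passed with estradiol under any alternative run, and 8 or 9 of the 10 passed between the lines under each, the ninth being DBP with RLE size factors and, with no treatment term, without the HGC-27 estradiol library. The count of all genes called with estradiol, 28, fell to 17 with a robust spread, 1 with DESeq2 (145 at an unadjusted p under 0.05) and 0 with limma-voom (490). Without the replicate block it was 0 (2 at an unadjusted p under 0.05), and the block changed no call of a clock gene. The fitted estradiol change of NFIL3, -0.01, turned to 0.0694 with limma-voom, 0.00125 with protein-coding genes only and 0.0721 without the replicate block. Fits between the lines with a library left out could not hold the treatment term, so 2 choices changed at once. They gave PER1 a difference of -0.26 to 0.0179 (-0.13 with all 4 libraries and no treatment term). An estradiol test with a library left out was not run, because the model has no residual degree of freedom then. The lowest counts, of ARNTL, limit its estradiol interval most.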
